A study of Mus musculus with 9 samples.

Results

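The selectins Selp and Sele, the immunoglobulin-type adhesion molecules Vcam1 and Icam1, and von Willebrand factor, Vwf, are 5 of the 19348 genes in a table of RNA-seq read counts from sorted mouse lung cells. They were chosen by their measured levels in the 3 cell populations and by how the replicate 1 library of each population stood to the others, so their levels, fold changes and replicate 1 ratios are given as a description without a test. All cells came from lungs of C57BL/6J mice of genotype Col1_GFP;Foxf1_tdTomato, so that GFP reports collagen I and tdTomato reports the transcription factor Foxf1. DBL cells expressed both genes (replicates 1, 3 and 4), TDonly cells Foxf1 alone (replicates 1, 2 and 3) and ColGFP cells type I collagen alone (replicates 1, 2 and 3). No treatment separates the groups, and age, the sort gates, the drivers of the reporter alleles and any pooling of animals are not stated in the sources used here. Nothing in the labels says that the replicates came from separate animals, so the p-values below measure the spread between these libraries, which may be technical.

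Endothelial cells recruit leukocytes in steps. Selectins slow the cells by binding sialylated and fucosylated glycans, and Icam1 and Vcam1 then hold them by binding leukocyte integrins of the beta 2 and alpha 4 kinds. P-selectin (Selp) and von Willebrand factor are stored together in Weibel-Palade bodies, the secretory granules of endothelium, and platelets carry both proteins too. E-selectin (Sele) is made on demand when inflammatory cytokines activate the transcription factor NF-κB, which also induces Icam1 and Vcam1. In the lung, Icam1 is also made by alveolar epithelium, and Vcam1 by mesenchymal cells, so neither marks endothelium by itself.

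Selp and Sele are neighbours. On mouse build GRCm38 (mm10) the GENCODE annotation places Sele at chr1:164048234-164057677 and Selp at chr1:164115264-164150026, both on the plus strand. Together they span 101793 bases. Vcam1 is at chr3:116109949-116129688 on the minus strand, Icam1 at chr9:21015985-21028817 on the plus strand and Vwf at chr6:125546774-125686679 on the plus strand. Selp shares 438 exonic bases with the antisense gene Gm16548, which had 0 to 85 reads in a library, and 186 with Gm16587. Icam1 shares 511 with Gm47079 and Vcam1 61 with Gm43109. Whether counting used strand is not stated in the sources used here, and reads in these stretches cannot be told apart by gene.

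The promoters of Sele, Selp and Icam1 are shown because all 3 genes are known as cytokine-inducible in the mouse, while their levels had different patterns here. Each is 300 bases from RefSeq (GRCm38.p6), plus strand, with 250 bases before the transcription start site and 50 from it on, and RefSeq promoters matched 3 of the 5 genes. Capitals mark GGNNNTTCC on either strand, a pattern chosen after the sequences had been seen, and TATAAA. They lie at chr1:164047984-164048283 for Sele, chr1:164115014-164115313 for Selp and chr9:21015690-21015989 for Icam1.

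Sele: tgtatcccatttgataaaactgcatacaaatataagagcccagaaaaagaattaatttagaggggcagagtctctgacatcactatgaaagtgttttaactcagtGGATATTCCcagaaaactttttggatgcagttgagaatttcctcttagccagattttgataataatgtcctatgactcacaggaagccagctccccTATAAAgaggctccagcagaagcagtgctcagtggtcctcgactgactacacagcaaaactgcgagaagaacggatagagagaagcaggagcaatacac

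Selp: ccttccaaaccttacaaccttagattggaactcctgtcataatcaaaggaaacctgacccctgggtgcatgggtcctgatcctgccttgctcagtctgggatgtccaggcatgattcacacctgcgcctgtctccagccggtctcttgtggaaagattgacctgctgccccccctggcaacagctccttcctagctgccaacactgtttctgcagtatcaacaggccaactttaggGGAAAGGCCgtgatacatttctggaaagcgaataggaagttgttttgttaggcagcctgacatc

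Icam1: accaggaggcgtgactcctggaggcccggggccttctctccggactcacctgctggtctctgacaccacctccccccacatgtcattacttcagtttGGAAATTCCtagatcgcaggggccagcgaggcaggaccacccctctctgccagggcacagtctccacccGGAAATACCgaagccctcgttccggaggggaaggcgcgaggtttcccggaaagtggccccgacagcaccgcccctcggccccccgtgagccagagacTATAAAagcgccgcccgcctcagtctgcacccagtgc

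In Sele, GGATATTCC starts 145 bases before the start site (-145) and TATAAA at -49. In Selp the single match, GGAAAGGCC, is on the minus strand at -14 and there is no TATAAA. In Icam1, GGAAATTCC at -153 matches on both strands and GGAAATACC at -84 on the minus strand. Its TATAAA begins at 14, past the RefSeq start, and the GENCODE start lies 45 bases downstream of the RefSeq one. The GC content was 41.7% for Sele, 51.7% for Selp and 64.7% for Icam1. Of 32851 RefSeq promoters of the same length, searched on both strands in the same way, 18.5% held GGNNNTTCC and 13.6% held TATAAA. The full NF-κB consensus, held by 8.46% of them, was in none of the 3 windows.

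The libraries held 17820969 to 26147475 counts over 17116 to 17753 genes with a read, and 15550 genes were kept for testing. Levels are CPM, read counts scaled to library size, with trimmed-mean (TMM) factors. The replicate 1 libraries carry sequencing core numbers of a lower series than the other 6, which form the second series; no label calls this a batch. Some replicate 1 libraries stood apart in their marker sums. The fibroblast sum of TDonly replicate 1 was 1617 CPM, against 5752 and 6049.6 in replicates 2 and 3. The alveolar epithelium sum of ColGFP replicate 1 was 12547 CPM, against 6257 and 4238 in replicates 2 and 3. That of DBL replicate 1 was 7830 CPM, slightly below the 7993 and 8154 of replicates 3 and 4. In TDonly it was 12273 CPM in replicate 1, below the 14174 and 13699 of replicates 2 and 3. The summed CPM of 15 pan-endothelium markers, such as Cdh5 and Pecam1, was 4606 to 5932 in DBL, 13075 to 14929 in TDonly and 916 to 1260.2 in ColGFP. All 15 passed as higher in DBL than in ColGFP and in TDonly than in ColGFP, and as lower in DBL than in TDonly. Fibroblast markers summed to 34781 to 45533 CPM in DBL, 1617 to 6049.6 in TDonly and 23331 to 39598 in ColGFP. In these bulk libraries, fewer cells of a type and less RNA per cell cannot be told apart.

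Selp was highest in TDonly, intermediate in DBL and barely present in ColGFP, and in both Foxf1 reporter populations 1 library held most of it. The DBL libraries had 52.8, 12.9 and 11.1 CPM in replicates 1, 3 and 4. The TDonly libraries had 108, 43.2 and 35.0 CPM in replicates 1, 2 and 3, against 2.64, 1.33 and 2.31 CPM in the ColGFP libraries. All DBL and TDonly libraries lay above all ColGFP libraries, while DBL replicate 1 lay above TDonly replicates 2 and 3, so DBL and TDonly overlapped. The means were 25.6 ± 23.5 CPM in DBL, 62.2 ± 40.2 in TDonly and 2.09 ± 0.680 in ColGFP (SD, n = 3 each). The log2 fold change was 3.59 ± 0.73 (SE) for DBL against ColGFP, 4.87 ± 0.75 for TDonly against ColGFP and -1.28 ± 0.62 for DBL against TDonly. These 3 comparisons share libraries. Without DBL replicate 1 the log2 fold change of Selp was 2.49 for DBL against ColGFP and -2.37 for DBL against TDonly; without TDonly replicate 1 it was -0.61 for DBL against TDonly and 4.20 for TDonly against ColGFP. Within the second series alone the values were 2.69, -1.66 and 4.35 for DBL against ColGFP, DBL against TDonly and TDonly against ColGFP.

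Sele had the same order of populations at lower levels. The DBL libraries had 23.6, 5.41 and 6.02 CPM in replicates 1, 3 and 4, and the TDonly libraries 44.8, 15.9 and 13.8 CPM in replicates 1, 2 and 3, against 0.581, 1.57 and 0.924 CPM in the ColGFP libraries. Again the replicate 1 libraries of DBL and TDonly were the high ones and DBL overlapped TDonly, while every ColGFP library was below both. The ColGFP values rest on 13, 26 and 20 reads, with exact Poisson 95% intervals of 0.310 to 0.994, 1.03 to 2.30 and 0.564 to 1.43 CPM, which cover counting error only. The log2 fold change of Sele was 3.55 ± 0.77 for DBL against ColGFP, 4.63 ± 0.79 for TDonly against ColGFP and -1.08 ± 0.63 for DBL against TDonly. Without DBL replicate 1 it was 2.52 for DBL against ColGFP and -2.12 for DBL against TDonly. Without TDonly replicate 1 it was -0.34 for DBL against TDonly and 3.89 for TDonly against ColGFP. Within the second series alone the Sele values were 2.24 for DBL against ColGFP, 3.57 for TDonly against ColGFP and -1.33 for DBL against TDonly.

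**Figure D1:**
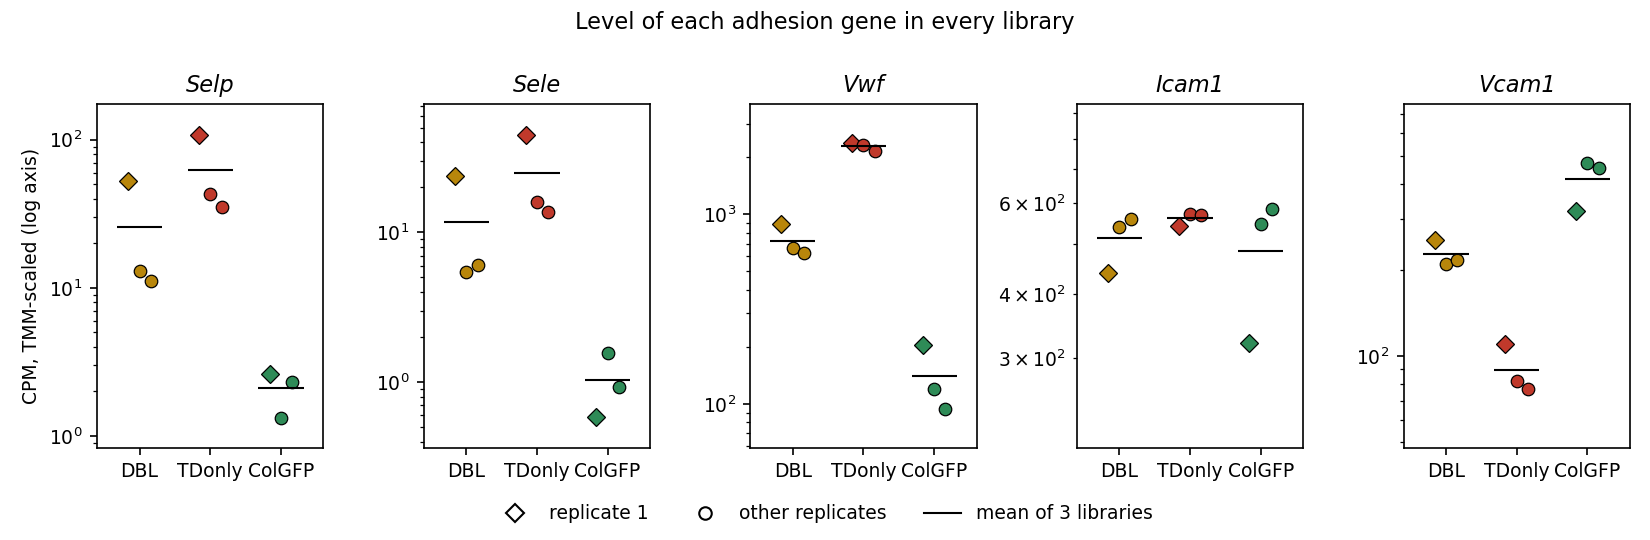
Level of each gene in each library (CPM, log axis), with DBL, TDonly and ColGFP from left to right; diamonds are replicate 1 libraries, circles the others and lines population means. Selp and Sele are highest in the replicate 1 libraries of DBL (52.8 and 23.6 CPM) and TDonly (108 and 44.8 CPM), while Vcam1 is highest in ColGFP and Icam1 lies between 321 and 584 CPM throughout.

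Vcam1, the ligand of the alpha 4 beta 1 integrin, had the opposite order. The DBL libraries had 255.0, 210 and 216 CPM in replicates 1, 3 and 4, the TDonly libraries 111, 81.8 and 76.6 CPM, and the ColGFP libraries 321, 473 and 455 CPM. The 3 populations did not overlap, with ColGFP highest and TDonly lowest. How many of all genes separate the populations without overlap was not counted. Differences were common, since 14.5% of all tested genes passed edgeR's test in DBL against ColGFP (adjusted p under 0.05). The share was 29.9% in DBL against TDonly and 45.5% in TDonly against ColGFP. The log2 fold change of Vcam1 was -0.87 ± 0.18 for DBL against ColGFP, -2.21 ± 0.19 for TDonly against ColGFP and 1.34 ± 0.19 for DBL against TDonly. A name for all 5 genes as genes of activated endothelium therefore goes against the data for Vcam1, whose level was lowest where endothelial markers were highest. Fibroblast marker sums were lowest in TDonly too, and those of DBL and ColGFP overlapped. Single fibroblast markers differed in this. Pdgfra, Npnt, Inmt and Tcf21 had the order of Vcam1 without overlap, and the others of the list did not. Pdgfra had 940, 1140 and 1113 CPM in DBL, 60.1, 223 and 219 in TDonly and 1858, 2047 and 2071 in ColGFP. The part of fibroblasts in the Vcam1 levels was not tested.

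Icam1, the ligand of the beta 2 integrins, was at nearly the same level in all populations. The DBL libraries had 439.6, 540.0 and 558 CPM, the TDonly libraries 542, 572 and 569 CPM and the ColGFP libraries 321, 547 and 584 CPM. The populations overlapped, and the lowest libraries were the replicate 1 libraries of ColGFP and DBL. The log2 fold changes were 0.08 ± 0.20, 0.21 ± 0.20 and -0.13 ± 0.20 for DBL against ColGFP, TDonly against ColGFP and DBL against TDonly. Each was about the size of its standard error or smaller, and without ColGFP replicate 1 the first and second of them changed sign, to -0.12 and -0.03. Alveolar epithelium markers, for cells that also make Icam1, summed to 7830 to 8154 CPM in DBL, 12273 to 14174 in TDonly and 4238 to 12547 in ColGFP, where replicate 1 was the highest; their part in the Icam1 levels was not tested.

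Vwf, the multimeric protein that captures platelets and carries factor VIII, separated the 3 populations in the reverse order of Vcam1. The DBL libraries had 884, 660.2 and 628 CPM in replicates 1, 3 and 4, the TDonly libraries 2374, 2320.4 and 2150.2 CPM and the ColGFP libraries 206, 120.1 and 94.0 CPM. There was no overlap, and the spread within TDonly was small, with a mean of 2282 ± 117 CPM (SD, n = 3). As for Vcam1, how many of all genes separate the populations without overlap was not counted. The log2 fold change of Vwf was 2.37 ± 0.27 for DBL against ColGFP, 4.03 ± 0.29 for TDonly against ColGFP and -1.66 ± 0.27 for DBL against TDonly. Platelet and megakaryocyte markers summed to 71.6 to 74.7 CPM in DBL, 78.5 to 106 in TDonly and 35.8 to 48.1 in ColGFP; of the 8, only Gp6 was at 0, in ColGFP replicate 1. The part of platelets in the Vwf and Selp levels was not tested.

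Divided by exon length, Icam1 was the most abundant of the genes in DBL and ColGFP, and Vwf in TDonly. In CPM per kilobase of exon, the mean level of Icam1 was 118 in DBL, 129 in TDonly and 111 in ColGFP. That of Vwf was 45.1 in DBL, 142 in TDonly and 8.71 in ColGFP, and that of Vcam1 was 25.6, 10.1 and 46.9 CPM per kilobase in the same order. The selectins were far below, with mean levels per kilobase of 5.80 for Selp and 4.01 for Sele in DBL, 14.1 and 8.52 in TDonly and 0.474 and 0.352 in ColGFP.

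Set against the endothelial markers of the same library, the population differences of Vwf and of the selectins shrank. Per 1000 CPM of the 15 pan-endothelium markers, Vwf stood at 149, 143 and 134 CPM in DBL, at 159, 177 and 159 in TDonly and at 163, 116 and 103 in ColGFP. The 3 populations thus lay between 103 and 177, and DBL and TDonly each overlapped the range of ColGFP. On the same scale Selp was 8.89, 2.81 and 2.37 CPM in DBL, 7.26, 3.30 and 2.59 in TDonly and 2.09, 1.28 and 2.52 in ColGFP. The range of DBL overlapped those of TDonly and ColGFP, while the lowest TDonly library, at 2.59, lay just above the highest ColGFP library, at 2.52. The replicate 1 libraries of DBL and TDonly were the highest of the 9. Sele was 3.98, 1.17 and 1.28 CPM per 1000 in DBL, 2.998, 1.21 and 1.02 in TDonly and 0.461, 1.51 and 1.01 in ColGFP. Outside the replicate 1 libraries, Sele lay between 1.01 and 1.51 in all 3 populations. Vcam1 moved the other way on this scale, at 43.0 to 46.0 in DBL, 5.68 to 7.41 in TDonly and 254 to 496 in ColGFP, as did Icam1, at 74.1 to 119 in DBL, 36.3 to 43.7 in TDonly and 255 to 638 in ColGFP. For these 2 genes the populations did not overlap once divided by the markers. Before division the populations overlapped for Icam1, at 321 to 584 CPM throughout. Its separation on this scale came from the marker sums, which did not overlap between populations. Any gene of constant level would separate in the same way.

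**Figure D2:**
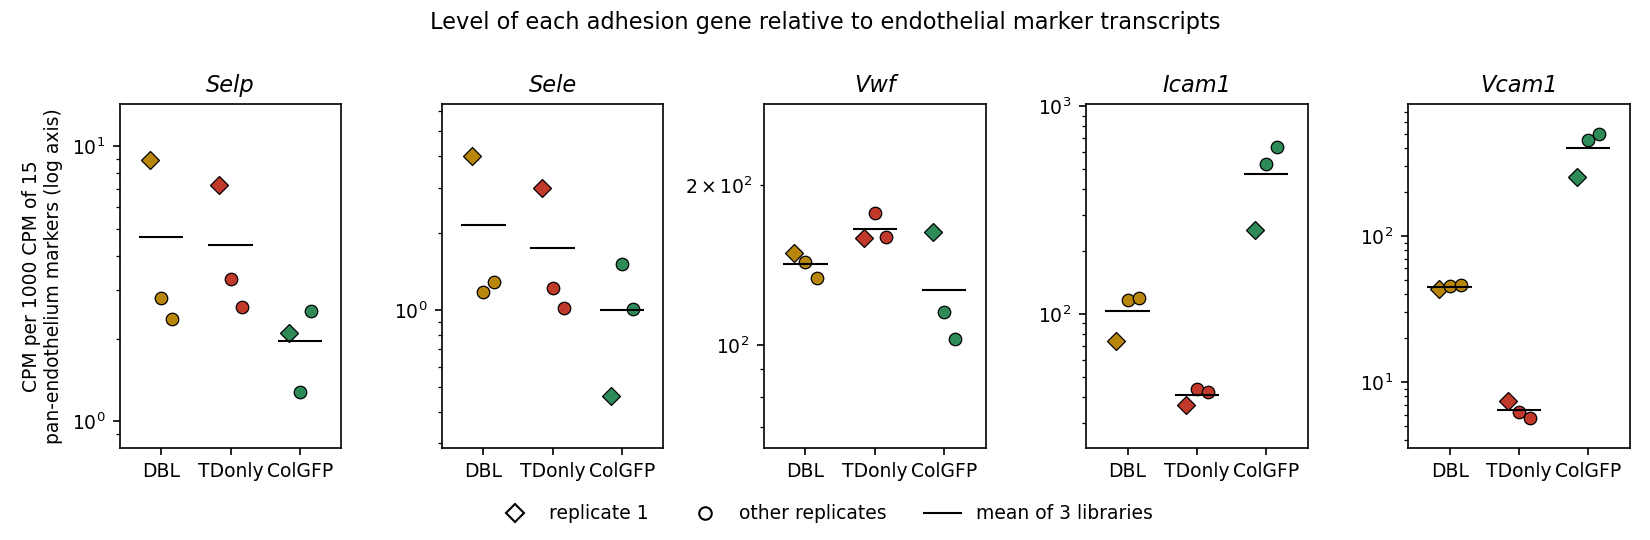
Level of each gene per 1000 CPM of summed pan-endothelium markers in each library (log axis), with DBL, TDonly and ColGFP from left to right; points are libraries and bars are population means. Vwf lies between 103 and 177 in all libraries, and the selectins are highest in the replicate 1 libraries of DBL and TDonly. Vcam1 and Icam1 are highest in ColGFP, where the marker sums used as divisor are lowest.

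Within populations, the replicate 1 library had the highest Selp level in each. In ColGFP this rested on 59 reads against 50 in replicate 3. Their exact Poisson 95% intervals, 2.01 to 3.40 and 1.71 to 3.05 CPM, overlapped. The log2 ratio of replicate 1 to the mean of the other libraries, with 0.1 CPM added to both, was 2.13 in DBL, 1.47 in TDonly and 0.51 in ColGFP. For Sele it was 2.03 in DBL, 1.59 in TDonly and -0.98 in ColGFP, where the interval of replicate 1 by counting error alone ends at 0.994 CPM, just above the 0.924 CPM of replicate 3. Vcam1 had ratios of 0.26, 0.48 and -0.53 in DBL, TDonly and ColGFP, and those of Vwf were 0.46, 0.09 and 0.94. Icam1 was lower in replicate 1 of each population, with log2 ratios of -0.32, -0.07 and -0.82. With 0.1 CPM added, Selp and Sele in DBL and TDonly were the only ones to reach a 2-fold difference, all upwards. Sele in ColGFP, at -0.98, missed it through the added 0.1 CPM, since its own values, 0.581 CPM in replicate 1 against a mean of 1.25 in the other 2, gave a ratio of 0.466. In DBL 2.43% of all tested genes were at least 2-fold higher in replicate 1 and 5.11% at least 2-fold lower. The shares were 2.26% and 9.23% in TDonly and 4.35% and 3.88% in ColGFP, on the same scale with 0.1 CPM added.

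**Figure D3:**
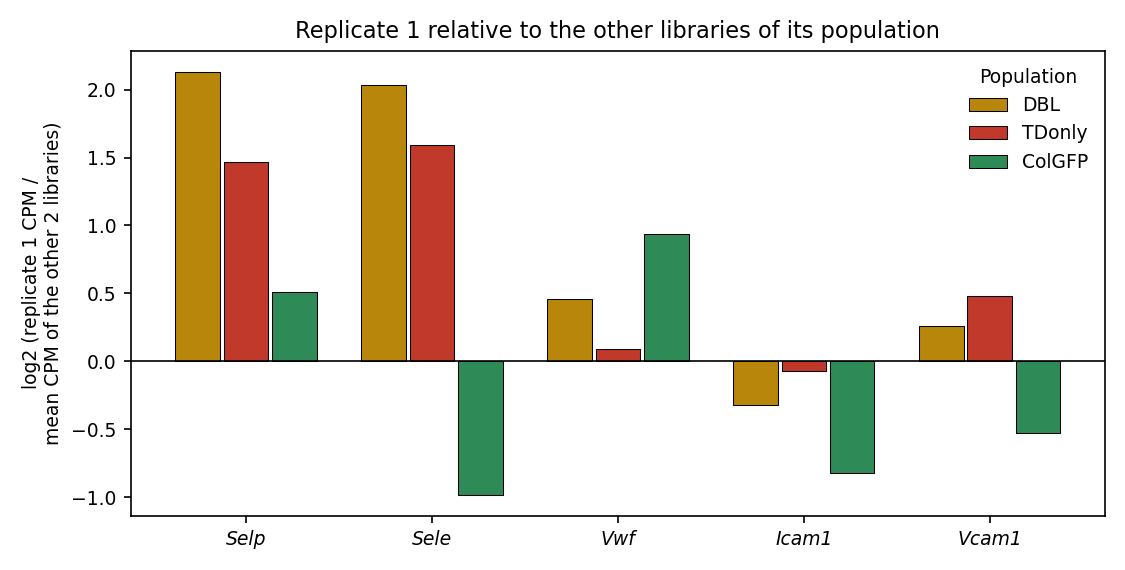
Log2 ratio of the replicate 1 library to the mean of the other libraries of its population, for each gene, with 0.1 CPM added to both; 1 library stands behind each numerator, so there are no error bars. Selp and Sele lie at 1.47 to 2.13 in DBL and TDonly, and Sele at -0.98 in ColGFP.

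In a model with population and core number series, fitted to all 9 libraries, the log2 fold change of replicate 1 against the others was 1.56 ± 0.23 (SE) for Selp and 1.41 ± 0.35 for Sele. It was 0.51 ± 0.15 for Vwf, 0.09 ± 0.16 for Vcam1 and -0.39 ± 0.12 for Icam1. The model fits 1 common replicate 1 effect to the 3 populations, also for the list genes below. Separate log2 ratios were 2.03, 1.59 and -0.98 for Sele in DBL, TDonly and ColGFP, and 0.26, 0.48 and -0.53 for Vcam1. A common value thus does not describe these 2 genes. In the model, leaving out single libraries gave 1.18 to 1.80 for Selp and 0.98 to 1.82 for Sele, lowest in each case without DBL replicate 1 and highest without ColGFP replicate 1. Vcam1 changed sign, to -0.12, without TDonly replicate 1, and was 0.38 without ColGFP replicate 1. Icam1 was -0.56 without TDonly replicate 1 and -0.19 without ColGFP replicate 1, and Vwf was 0.71 and 0.28 without the same libraries. The pan-endothelium markers moved less than the selectins, with a median log2 fold change of 0.34 and 8 of 15 passing as higher in replicate 1. Fibroblast markers had a median of -0.98, with 5 of 12 passing as lower, and leukocyte markers one of -0.95, with 4 of 11 passing as lower. Leukocyte marker sums in replicate 1 were 1311 CPM in DBL and 1998 in TDonly, each below the other libraries of its population, but 2412.0 in ColGFP, above the other 2. That sum was carried by Lyz2, a lysozyme gene of myeloid cells that is also known from alveolar type 2 cells, with 2257.5 CPM in ColGFP replicate 1 and 1074 and 771 in replicates 2 and 3. The other 10 leukocyte markers summed to 58.9 CPM in DBL replicate 1, against 144 and 162 in replicates 3 and 4, to 108 CPM in TDonly replicate 1, against 264 and 360 in replicates 2 and 3, and to 154.5 CPM in ColGFP replicate 1, against 185 and 206 in replicates 2 and 3. Without Lyz2, replicate 1 was thus the lowest of each population. The part of these cells in the selectin ratios was not tested. Per 1000 CPM of the pan-endothelium markers, Selp was 8.89 in DBL replicate 1, against 2.81 and 2.37 in replicates 3 and 4. It was 7.26 in TDonly replicate 1, against 3.30 and 2.59 in replicates 2 and 3. In ColGFP replicate 1 it was 2.09, against 1.28 and 2.52 in replicates 2 and 3. The venous marker Ackr1 (listed as Darc), an atypical chemokine receptor of venules, where selectins are known to be strong, had 6.14, 2.21 and 3.47 CPM in DBL, 5.80, 1.52 and 0.835 in TDonly and 0.760, 0.605 and 0.785 in ColGFP. Its highest libraries were replicate 1 of DBL and of TDonly, at a log2 fold change of 1.35 ± 0.37 for replicate 1 that missed the threshold (edgeR's quasi-likelihood test, Benjamini-Hochberg adjusted p = 0.0584). Ackr1 was picked from the 7 venous markers after its values were seen, and the list as a whole had a median of 0.20 for replicate 1, with none passing as higher and 1, Nr2f2, as lower. Nr2f2, a transcription factor of venous identity, had 146, 181 and 186 CPM in DBL, 39.7, 57.5 and 51.5 in TDonly and 196, 264 and 252 in ColGFP. Replicate 1 was its lowest library in each population. Its order of populations was the reverse of that of the pan-endothelium markers, so it does not mark venous endothelium by itself here.

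The partners of these genes were followed in 7 lists of 108 genes, of which 103 were tested in the fit across all genes with edgeR's quasi-likelihood test and Benjamini-Hochberg adjustment. For DBL against ColGFP, 22 genes of the lists passed as higher and 4 as lower, against 8.04% and 6.47% of all tested genes (14.5% in either direction). For DBL against TDonly, 26 passed as higher and 23 as lower, beside 17.3% and 12.6% of all genes (29.9%). For TDonly against ColGFP, 31 passed as higher and 26 as lower, beside 21.6% and 24.0% of all genes (45.5%). With library totals in place of TMM factors, 4363 genes passed as higher and 2998 as lower in that comparison, where the TMM-scaled fit had 3355 and 3727. Fitted to the second series alone, 2543 of all genes passed as higher and 1969 as lower in DBL against ColGFP. The counts were 3693 and 3031 in DBL against TDonly and 4182 and 4652 in TDonly against ColGFP. With all 9 libraries they were 1250 and 1006, 2692 and 1965, and 3355 and 3727 in the same order. List counts from the second series, given below, stand beside these larger counts of all genes. For replicate 1 against the others, 11 genes of the lists passed as higher and 7 as lower, beside 3.52% and 4.13% of all genes (7.65%). The median log2 fold change over the 103 genes was 0.14, -0.07, 0.27 and -0.03 in the 4 comparisons in this order, against 0.00, -0.04, 0.02 and 0.01 over all genes. By list, the median for DBL against TDonly was 0.14 for selectin ligands, -0.92 for integrins, -0.80 for other adhesion molecules, -0.23 for Weibel-Palade genes, 0.00 for receptors and transducers, 0.75 for NF-κB-induced genes and -0.56 for quiescence genes. For DBL against ColGFP the list medians were 0.50, -0.54, 0.53, 0.08, 0.01, 0.41 and 1.24 in the same order of lists, and for TDonly against ColGFP 0.54, 0.28, 1.23, 0.07, -0.13, -0.47 and 0.84. In replicate 1 against the others they lay between -0.91, for integrins, and 0.14, for Weibel-Palade genes. The lower count for DBL against ColGFP was 2 without DBL replicate 4 and 8 without TDonly replicate 1. Without DBL replicate 1 the replicate 1 comparison had 4 higher genes of the lists and without ColGFP replicate 1 it had 18; the lower count was 4 without DBL replicate 4 and 15 without ColGFP replicate 1.

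**Figure D4:**
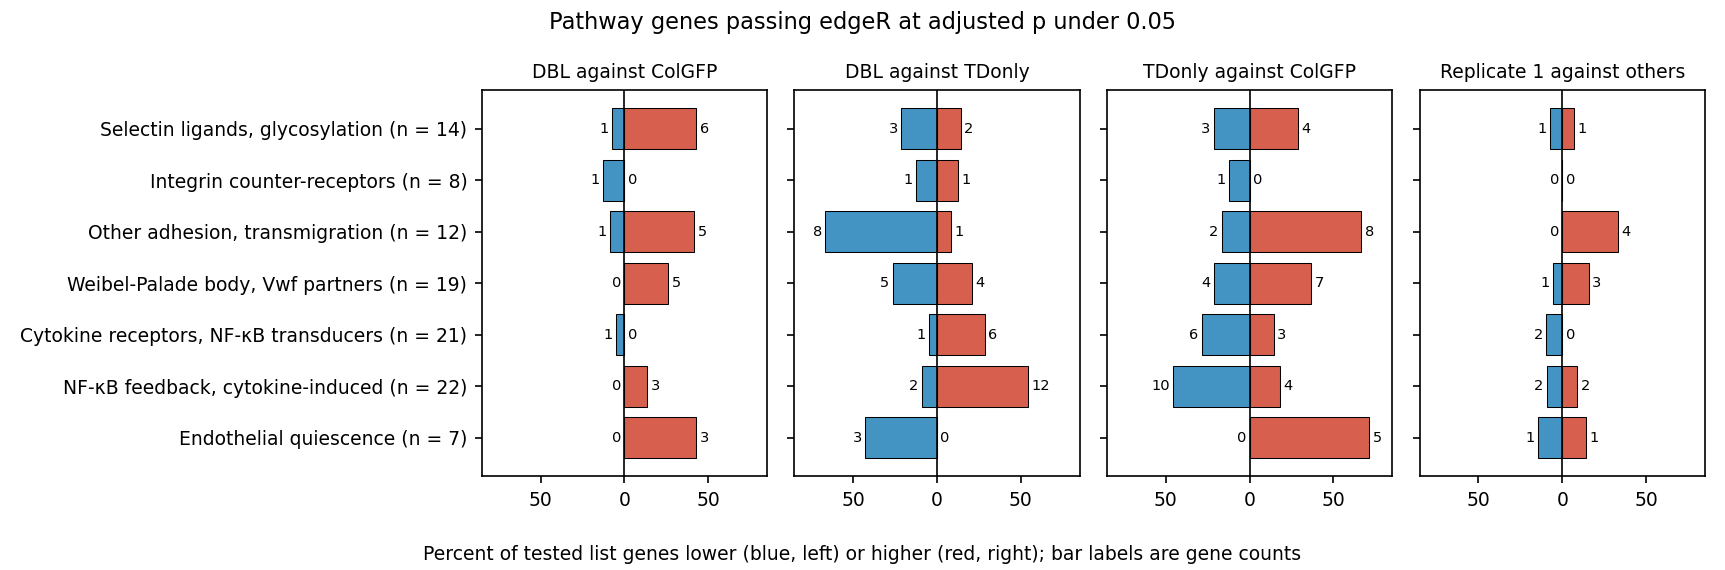
Share of the tested genes of each list that passed the test as higher (to the right) or lower (to the left), in percent with gene counts beside the bars, for DBL against ColGFP, DBL against TDonly, TDonly against ColGFP and replicate 1 against the others. Of the 22 NF-κB-induced genes, 12 were higher and 2 lower in DBL against TDonly, and of the 12 adhesion molecules 8 were higher and 2 lower in TDonly against ColGFP.

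Selectin ligand genes moved in both directions. Of 14 tested genes for ligands and the enzymes that glycosylate them, 6 rose and 1 fell in DBL against ColGFP. The sialomucins Podxl (log2 fold change 2.46 ± 0.14, adjusted p = 1.37e-05 by edgeR), Emcn (2.83 ± 0.33) and Cd34 (1.04 ± 0.23) rose, as did the sialyltransferase St3gal6 (1.91 ± 0.16), the core glycan branching enzyme Gcnt1 (1.37 ± 0.19) and the sulfotransferase Chst4 (2.42 ± 0.47). The galactosyltransferase B4galt1 fell, at -0.29 ± 0.08, and its call was lost when any of the libraries but TDonly replicate 1 was left out. In DBL against TDonly, B4galt1 (0.84 ± 0.08) and Chst4 (1.70 ± 0.45) rose, and Podxl (-1.60 ± 0.14), St3gal6 (-1.20 ± 0.15) and Emcn (-1.42 ± 0.31) fell. The higher count of 2 was 1 without DBL replicate 3 or 4 and 4 without ColGFP replicate 1. In TDonly against ColGFP, 4 rose, among them Podxl at 4.07 ± 0.15, St3gal6 at 3.11 ± 0.16, Emcn at 4.26 ± 0.35 and Gcnt1 at 1.27 ± 0.19, and B4galt1 (-1.13 ± 0.08), Cd44 (-0.68 ± 0.18) and St3gal4 (-0.59 ± 0.13) fell. The second series alone gave 6 higher and 3 lower, 5 and 5, and 8 and 4 for the 3 comparisons in this order.

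PSGL-1 (Selplg), the main leukocyte ligand of P-selectin, did not follow Selp. The DBL libraries had 2.40, 6.62 and 9.04 CPM in replicates 1, 3 and 4, the TDonly libraries 5.84, 15.2 and 19.3 CPM and the ColGFP libraries 9.08, 9.07 and 13.3 CPM. In DBL and TDonly the replicate 1 library was the lowest. Selplg fell in replicate 1 against the others, at -1.13 ± 0.28 (adjusted p = 0.0426 by edgeR), a call lost without DBL replicate 3 or 4, any TDonly replicate or ColGFP replicate 3. The other call of this list for replicate 1 was Emcn, which rose at 0.70 ± 0.14 and lost the call without any DBL replicate or without TDonly replicate 2 or 3.

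Leukocytes use integrin counter-receptors to bind Icam1 and Vcam1. In the fit to all 9 libraries, 14.5% of all tested genes passed in DBL against ColGFP. The share was 29.9% in DBL against TDonly and 45.5% in TDonly against ColGFP. Of the 8 integrin genes tested, none rose and 1 fell in DBL against ColGFP. In DBL against TDonly 1 rose and 1 fell, and in TDonly against ColGFP none rose and 1 fell. Itga9, the alpha 9 chain of a Vcam1-binding integrin, gave a call in each, with -0.63 ± 0.11, 0.37 ± 0.11 and -1.0 ± 0.11 (adjusted p 0.00382, 0.0283 and 5.58e-05 by edgeR). The call in DBL against TDonly was lost without DBL replicate 1 or TDonly replicate 2 or 3. Itgb2, the beta 2 chain, fell in DBL against TDonly at -1.72 ± 0.56, and was lost without DBL replicate 1 or 3, TDonly replicate 2 or 3, or any ColGFP replicate. The lower count there was 2 without DBL replicate 4 and 3 without TDonly replicate 1. For TDonly against ColGFP, 1 integrin gene passed as higher without DBL replicate 1 and 2 without TDonly replicate 1. For replicate 1 none passed, but without ColGFP replicate 1, 6 passed as lower and 1 as higher, and 1 passed as lower without ColGFP replicate 2. In the second series alone, 6 of 8 passed as lower in DBL against TDonly and 6 as higher in TDonly against ColGFP. Of all genes, 3031 and 4182 passed there in these directions, against 1965 and 3355 in the fit to all 9 libraries.

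Other endothelial adhesion and transmigration molecules mostly had the order of the endothelial markers. Of 12 tested, 5 rose and 1 fell in DBL against ColGFP: Icam2 (2.33 ± 0.12), Pecam1 (2.43 ± 0.22), Esam (2.11 ± 0.25), F11r (1.43 ± 0.19) and Mcam (1.74 ± 0.26) rose, with adjusted p 1.03e-05 to 0.00182 by edgeR. Alcam fell, at -0.74 ± 0.15, a call lost without DBL replicate 4. In DBL against TDonly 8 fell and 1 rose. The lower ones by adjusted p were led by Icam2 (-1.52 ± 0.12), Pecam1 (-1.52 ± 0.22) and Esam (-1.32 ± 0.24), and the junctional molecule Jam3 rose, at 1.36 ± 0.12. In TDonly against ColGFP, 8 rose, led by Icam2 at 3.86 ± 0.13, Pecam1 at 3.95 ± 0.24 and Esam at 3.43 ± 0.26, and Jam3 (-1.66 ± 0.12) and Alcam (-0.57 ± 0.15) fell. Icam2, which binds the same beta 2 integrins as Icam1, thus separated the populations as Vwf did, where Icam1 did not. In replicate 1 against the others, Mcam (0.59 ± 0.09), Esam (0.55 ± 0.09), Msn (0.43 ± 0.08) and Pecam1 (0.47 ± 0.09) rose and none of the 12 fell. The count of 4 was 2 without DBL replicate 1 or without DBL replicate 4. Pecam1, Esam and Emcn are also in the pan-endothelium list. Fitted to the second series alone, 8 rose and 2 fell, 1 rose and 8 fell, and 9 rose and 3 fell in DBL against ColGFP, DBL against TDonly and TDonly against ColGFP.

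The cargo and machinery of Weibel-Palade bodies, with the partners of Vwf, moved in both directions. Of 19 tested genes, 5 rose in DBL against ColGFP, among them the Rab effector Myrip (1.96 ± 0.12, adjusted p = 1.84e-05 by edgeR), the exocytosis gene Vamp3 (0.66 ± 0.11), the scavenger receptor Stab1 (1.94 ± 0.27) and the endothelin precursor Edn1 (3.01 ± 0.63). None fell, although 2 did so without TDonly replicate 1 and 1 without ColGFP replicate 1. In DBL against TDonly, 4 rose and 5 fell. Cd63 (1.55 ± 0.12), Rab3d (0.95 ± 0.13), Plat (1.11 ± 0.20) and Igfbp7 (0.87 ± 0.18) rose, while Myrip (-1.35 ± 0.12), Vamp3 (-0.69 ± 0.11), Stab1 (-1.27 ± 0.27) and Rab27a (-1.24 ± 0.30) were among those that fell. For TDonly against ColGFP, 7 rose and 4 fell, among them Myrip at 3.30 ± 0.13, Cd63 at -1.65 ± 0.12 and Vamp3 at 1.35 ± 0.11. The second series alone gave 7 higher and 4 lower, 7 and 8, and 8 and 7 for the 3 comparisons in this order.

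Of this list, Edn1, the factor VIII gene F8 and Angpt2 were highest in the replicate 1 libraries of DBL and TDonly within those populations. Edn1 had 106, 29.3 and 26.8 CPM in DBL replicates 1, 3 and 4, 264, 89.4 and 98.1 CPM in TDonly and 7.78, 5.50 and 6.70 CPM in ColGFP. F8 had 9.76, 2.39 and 3.11 CPM in DBL, 21.0, 4.004 and 2.59 in TDonly and 2.995, 1.57 and 2.45 in ColGFP. In every population replicate 1 was the highest for both genes. Angpt2, an antagonist of the Tie2 receptor stored in Weibel-Palade bodies, had 66.1, 27.7 and 30.0 CPM in DBL, 101.7 CPM in replicate 1 of TDonly with 20.7 and 22.6 in the others, and 57.04, 69.6 and 80.2 in ColGFP, where replicate 1 was the lowest. Its log2 fold change for replicate 1, 1.14 ± 0.36, missed the threshold (adjusted p = 0.0964 by edgeR). Edn1 rose by 1.37 ± 0.21 and F8 by 1.82 ± 0.33 in replicate 1 against the others (adjusted p = 0.00777 and 0.0144 by edgeR), and Stab1 by 0.64 ± 0.08. The vesicle gene Rab3b fell, at -1.91 ± 0.47, a call lost whichever of the 9 libraries was left out.

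In DBL against ColGFP, 14.5% of all tested genes passed in either direction. Receptors and transducers of the cytokines that induce Sele, Icam1 and Vcam1 were, like most genes, mostly uncalled in that comparison. Of 21 tested none rose there and 1 fell, the interleukin 1 receptor accessory chain Il1rap, at -0.79 ± 0.13 (adjusted p = 0.00329 by edgeR); without TDonly replicate 1 there were 2. In DBL against TDonly, 6 rose and 1 fell, with the interleukin 1 receptor Il1r1 at 1.63 ± 0.15, Il1rap at 0.74 ± 0.13, the kinase Irak1 at 0.34 ± 0.09 and the kinase Ikbkb at -0.47 ± 0.13. The higher count was 3 without DBL replicate 3 or TDonly replicate 2 and 2 without TDonly replicate 3. The lower count was 0 without DBL replicate 3 or 4, and 2 without DBL replicate 1 or ColGFP replicate 1 or 2. Between TDonly and ColGFP, 3 rose (Ikbkb, Tnfrsf1a and Chuk, at 0.41 to 0.75) and 6 fell, led by Il1rap at -1.53 ± 0.13 and Il1r1 at -1.30 ± 0.15; the higher count was 1 without ColGFP replicate 2. The tumour necrosis factor receptor gene Tnfrsf1a rose by 0.41 ± 0.11 in TDonly, and Tnfrsf1b fell, at -0.67 ± 0.24. In replicate 1, the decoy receptor Il1r2 (-1.46 ± 0.26) and the NF-κB subunit gene Rel (-0.42 ± 0.09) fell and none rose. Leaving out DBL replicate 1 took that number to 0, and it became 1 without DBL replicate 4, TDonly replicate 2 or 3, or ColGFP replicate 3, and 1 gene passed as higher without ColGFP replicate 1. Counts from the second series alone were 1 higher and 4 lower in DBL against ColGFP, 8 and 4 in DBL against TDonly, and 5 and 10 in TDonly against ColGFP.

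NF-κB feedback and cytokine-induced genes moved mostly apart from Selp and Sele. Of 22 tested, 12 rose and 2 fell in DBL against TDonly, and 4 rose and 10 fell in TDonly against ColGFP. The interleukin 6 gene Il6 had 191, 328 and 319 CPM in DBL, 10.6, 29.7 and 33.6 in TDonly and 93.7, 264 and 255 in ColGFP. The chemokine gene Cxcl1 had 155, 209 and 207 CPM in DBL, 6.23, 16.0 and 22.0 in TDonly and 36.7, 127 and 115 in ColGFP. No TDonly library overlapped another population for either gene, and replicate 1 was the lowest library in each population. The fibroblast marker sums were also lowest in TDonly, at 1617 to 6049.6 CPM, and lowest in replicate 1 of each population; their part in these levels was not tested. In DBL against TDonly, Ccl7 was at 4.05 ± 0.56, Cxcl1 at 3.69 ± 0.54, Il6 at 3.50 ± 0.51 and Lif at 2.15 ± 0.33 (adjusted p 0.000605 to 0.00106 by edgeR). The fractalkine gene Cx3cl1, at -1.31 ± 0.18, and Traf1, at -0.68 ± 0.22, fell; the lower count was 1 without any DBL replicate, without TDonly replicate 2 or 3, or without ColGFP replicate 3. In TDonly against ColGFP, Cx3cl1 (2.82 ± 0.19), Traf1 (1.01 ± 0.22), Irf1 (0.77 ± 0.19) and Csf2 (1.45 ± 0.44) rose, and Lif (-2.63 ± 0.34) and Nfkbiz (-1.58 ± 0.18) were among those that fell. The NF-κB inhibitor gene Nfkbia, a feedback target, passed in none of the comparisons (0.19 ± 0.15, 0.19 ± 0.15 and 0.00 ± 0.15 for DBL against ColGFP, DBL against TDonly and TDonly against ColGFP).

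Between DBL and ColGFP, 3 of these 22 genes rose and none fell: Cx3cl1 at 1.51 ± 0.18, Csf1 at 0.65 ± 0.18 and Ccl7 at 1.82 ± 0.50 (adjusted p 0.000576 to 0.0380 by edgeR). The count was 1 without DBL replicate 1 or 4, TDonly replicate 2 or 3, or any ColGFP replicate, and without ColGFP replicate 1 a gene passed as lower. In replicate 1 against the others, Cxcl10 rose by 1.98 ± 0.45 and Cx3cl1 by 0.40 ± 0.08, while Il6 fell, at -1.24 ± 0.15, and Cxcl1 fell, at -1.18 ± 0.23 (adjusted p 0.00282 to 0.0322 by edgeR). The interferon-induced chemokine gene Cxcl10 had 136, 29.9 and 26.5 CPM in DBL, 69.0, 7.73 and 7.69 in TDonly and 27.0, 25.8 and 31.1 in ColGFP. Like Sele, it was high in the replicate 1 libraries of DBL and TDonly and not in that of ColGFP. The higher count for replicate 1 was 0 without DBL replicate 1 or 4 or TDonly replicate 2, 1 without DBL replicate 3, TDonly replicate 1 or 3 or ColGFP replicate 2, and 5 without ColGFP replicate 1. The number of lower genes became 5 when DBL replicate 1 was left out and 4 when ColGFP replicate 1 was left out. With the second series alone, 7 rose and 3 fell in DBL against ColGFP, 15 rose and 4 fell in DBL against TDonly, and 4 rose and 15 fell in TDonly against ColGFP.

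**Figure D5:**
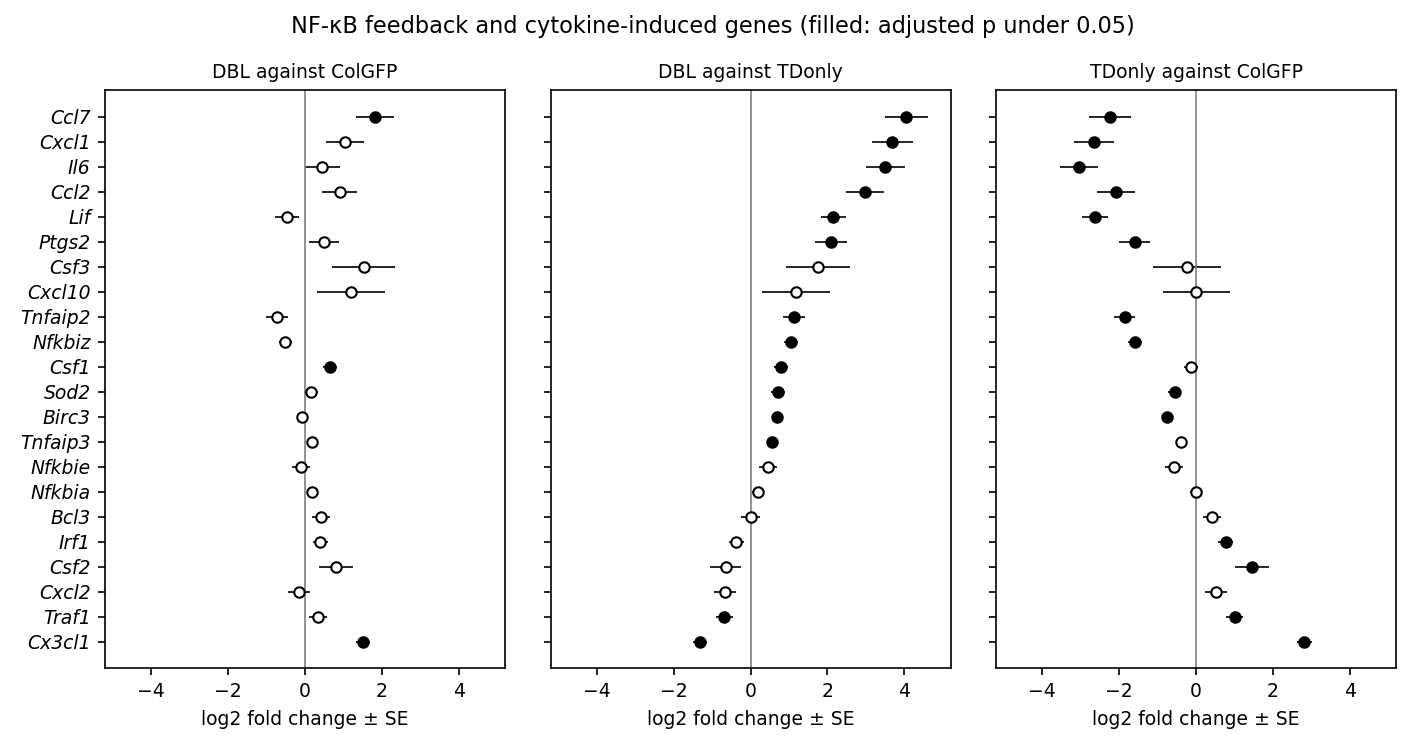
Log2 fold change (with SE bars) of the 22 NF-κB feedback and cytokine-induced genes in 3 panels, DBL against ColGFP, DBL against TDonly and TDonly against ColGFP, ordered by the middle panel; filled points passed the test, and the panels come from 1 model and share libraries. Ccl7 (4.05), Cxcl1 (3.69) and Il6 (3.50) lie highest for DBL against TDonly and Cx3cl1 (-1.31) lowest.

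Of 7 genes tied to a resting endothelium, 3 rose and none fell in DBL against ColGFP: Tek (2.01 ± 0.11), Tie1 (2.39 ± 0.17) and Nos3 (2.58 ± 0.30), the angiopoietin receptor, its partner and endothelial nitric oxide synthase. The same 3 fell in DBL against TDonly, at -1.27 ± 0.10, -1.50 ± 0.17 and -1.59 ± 0.27 (adjusted p 6.99e-05 to 0.00190 by edgeR). Between TDonly and ColGFP, 5 rose: Tek at 3.28 ± 0.11, Tie1 at 3.89 ± 0.18, Nos3 at 4.17 ± 0.31, the shear-induced factor Klf2 at 0.79 ± 0.19 and thrombomodulin, Thbd, at 0.84 ± 0.21. The higher count for DBL against TDonly was 1 without TDonly replicate 1 and 2 without ColGFP replicate 1, and 1 gene passed as lower in TDonly against ColGFP without ColGFP replicate 1. In replicate 1, Tie1 rose by 0.33 ± 0.08 and Thbd fell, at -0.47 ± 0.09. Tie1 lost its call without any DBL replicate or TDonly replicate 2 or 3, and Thbd without DBL replicate 1; 2 genes passed as lower without TDonly replicate 1. The second series alone gave 5 higher and 0 lower, 2 and 5, and 5 and 2 for the 3 comparisons in this order. Tek and Tie1 are in the pan-endothelium list too.

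Over the 9 libraries, the genes whose log2 CPM was most like that of Selp, among 12761 compared, were Nos2 (Pearson's r 0.996), Edn1 (0.995), Ifi47 (0.993) and Gbp9 (0.992). Ifi47 and Gbp9 are interferon-inducible GTPases and Nos2 is inducible nitric oxide synthase. Nos2 averaged 13.0 CPM in DBL, 26.0 in TDonly and 2.26 in ColGFP. For Sele they were the asparagine synthetase gene Asns (0.996), Upp1 (0.991), Bst1 (0.990) and Ly6a (0.989). Vcam1 was most like Sparcl1 (0.994), Lix1l (0.993), Pigk (0.987) and Afap1 (0.986). Vwf was most like Afap1l1 (0.999), the transcription factor gene Gata2 (0.998), Slco2a1 (0.998) and She (0.998), and Icam1, which varied least, had the lowest values, with Cyb5d1 (0.952), Chst7 (0.938), Zswim3 (0.934) and Ift172 (0.923). Among the 5 genes r was 0.96 for Selp and Sele, 0.94 for Selp and Vwf, -0.82 for Selp and Vcam1 and -0.95 for Vcam1 and Vwf. The points are 3 populations, with a replicate 1 pattern shared by DBL and TDonly, rather than independent samples, so these values describe likeness only. By Spearman's rho, with ties broken by Pearson's r, 1 of the 4 genes remained among the 4 most alike for Selp, namely Gbp9. For Vwf 1 remained, She, and none did for Sele, Vcam1 and Icam1. With 47 genes at a rho of 1 for Vwf, She included, that count rests on how ties were broken.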

How the data were processed

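RNA-seq read counts per gene symbol were deposited for 9 libraries of sorted mouse lung cells. Per the submitters' processing notes, the authors trimmed reads with cutadapt, aligned them with TopHat to mm10 and counted them with HTSeq; versions, annotation and strand setting are not stated in the sources used here. The deposited counts are raw, with 17820969 to 26147475 per library, which limits precision mainly for genes with few reads. The series design text names a ribogone depletion of ribosomal RNA. The labels' extraction protocol is one for flash-frozen lungs, and how it applies to sorted cells is not stated. Groups and replicate numbers came from the sample titles, columns were matched through the core number, and 3 columns that matched no sample were not used.

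Genes were kept with filterByExpr (minimum count 10). A quasi-likelihood model (edgeR 4.0.16, limma 3.58.1, R 4.3.3) with 1 coefficient per population and TMM factors used all 9 libraries (6 residual degrees of freedom). A second model added the core number series (5 residual degrees of freedom). Tests were two-sided, adjusted by Benjamini-Hochberg over 15550 genes, threshold 0.05. Standard errors were obtained as |log2 fold change| over the root of the F statistic. Likeness was Pearson's r of log2 CPM (prior count 2) among annotated genes with a mean of at least 1 CPM. Ackr1 was matched as Darc; Cd99, Ccl21a and Ly6g were not matched and Glycam1, Madcam1, Adamts13 and Ccl20 did not pass the filter.

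Marker lists beside those described were venous, arterial, capillary and lymphatic endothelium, mesothelium and pericytes. Their summed CPM in DBL, TDonly and ColGFP was 704 to 767, 1121 to 1218 and 481 to 537 for venous, 1276 to 1755, 2920 to 3538 and 552 to 627 for arterial, 1056 to 1315, 2603 to 2931 and 789 to 964 for capillary and 228 to 281, 625 to 636 and 61.6 to 113 for lymphatic markers. For mesothelium it was 689 to 795, 104 to 353 and 239 to 307, and for pericytes 872 to 1159, 149 to 274 and 796 to 1068.

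The genes described and all lists were chosen with earlier results of these data known. Named were, for each list and comparison, up to 4 genes by adjusted p and every called gene where 5 or fewer were called, and the 4 genes most alike to each of the 5; some genes that met this rule are not reported here. Selplg, Edn1, F8, Il6, Cxcl1, Cxcl10, Nfkbia, Tnfrsf1b, Ackr1, Nr2f2, Lyz2, Angpt2, Pdgfra, Npnt, Inmt and Tcf21 were singled out after their values were seen. Alternatives were DESeq2 1.42.0 (size factors or test), library totals, limma-voom, no filter, 10 CPM in 3 libraries, a fit of only the groups compared, a replicate block, the core series as a covariate, the second series alone and leaving out each library. On simulated data of the same size, DBL against ColGFP recovered 45% of the 100 genes with a 2-fold change and 84% of the 100 with a 4-fold change, with 5 false calls among 15151 unchanged genes. For replicate 1 against the others it was 77%, 91% and 9 among 15177. The simulated libraries were independent and had no other differences between populations or replicate 1 libraries, unlike these data, so the shares may not carry over.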

Additional observations from a re-analysis of the deposited data

Results flagged for a closer look

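The replicate 1 library differed from the others of its population in opposite ways across populations for 2 of the 5 genes. The log2 ratio of replicate 1 to the mean of the other libraries was 2.03 in DBL and 1.59 in TDonly for Sele, but -0.98 in ColGFP, where Sele had 13, 26 and 20 reads. For Vcam1 it was 0.26 in DBL and 0.48 in TDonly, and -0.53 in ColGFP. With 1 library behind each of these replicate 1 values, the difference between populations was not tested.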

How the results depend on the processing

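Every alternative run, single libraries left out included, kept the direction of Selp, Sele, Vcam1 and Vwf in the 3 population comparisons; other than for single libraries, Selp was at 2.69 to 3.65 and Vcam1 at -1.11 to -0.81 for DBL against ColGFP. Library totals moved the median log2 fold change of all genes to -0.13 for DBL against TDonly and 0.16 for TDonly against ColGFP, and the TDonly means of Icam1 and Vwf to 594 and 2409 CPM. Within the second series, DBL against ColGFP had 34 list genes higher and 18 lower, 2543 and 1969 of all genes, and Sele at 2.24. DBL against TDonly then had 40 list genes and 3031 genes lower, and TDonly against ColGFP 42 list genes lower, Sele at 3.57 and Vcam1 at -2.58. For replicate 1 against the others, DESeq2 called 14 list genes and 1201 genes lower, and limma-voom 11 list genes. By Spearman's rho, with ties broken by Pearson's r, 1 of 4 alike genes remained for Selp, 1 for Vwf and 0 for Sele, Vcam1 and Icam1. The cause of these shifts was not tested.

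Leaving out single libraries gave 2 to 8 list genes and 581 to 1298 genes lower in DBL against ColGFP, with Selp at 2.49 to 4.0 and Sele at 2.52 to 3.95. In DBL against TDonly, 1155 to 2019 genes were lower and Selp lay at -2.37 to -0.61. For replicate 1 there were 4 to 18 list genes higher and 4 to 15 lower, 203 to 1259 genes higher and 244 to 1304 lower. Selp lay at 1.18 to 1.80 there, Sele at 0.98 to 1.82, Vcam1 at -0.12 to 0.38, Icam1 at -0.56 to -0.19 and Vwf at 0.28 to 0.71. Of the 18 list genes called, 6 remained without DBL replicate 1 and 9 without DBL replicate 4 or TDonly replicate 2. For the called genes of the lists, 101 pairs of gene and alternative ended a call and none reversed a direction.

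Same-numbered libraries correlated in their deviations at 0.10, 0.04 and 0.08 for TDonly and ColGFP (replicates 1, 2 and 3), at 0.53 and 0.23 for DBL and TDonly and at 0.09 and 0.02 for DBL and ColGFP (replicates 1 and 3). Not every pair passed 0.1, so the numbers were not taken to pair the samples; the 0.53 joins libraries of 1 core number series. With the replicate number as a block, 626 genes were lower in DBL against ColGFP, and 21 of 26, 40 of 49 and 56 of 57 calls in the lists remained for DBL against ColGFP, DBL against TDonly and TDonly against ColGFP.

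Depth limits Sele in ColGFP, at 13 to 26 reads. With 3 libraries a population and 1 replicate 1 library in each, the core number series cannot be told apart from whatever else sets replicate 1 apart.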
